A study of Rattus norvegicus with 8 samples.

Results

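Respiratory complex I, the NADH dehydrogenase of the inner mitochondrial membrane, was followed through its nuclear-encoded subunits in extraocular muscle of hyperthyroid and untreated rats. Members were 36 subunit genes taken by symbol, and the probe set with the highest mean log2 signal stood for each gene. A probe set carrying the symbol alone was found for 34 of the 36, among 14217 genes with such a probe set. Ndufa10 and Ndufs5 were not analysed here. All 34 passed the filter on dim probe sets, as did 10446 genes in all, and all 34 were among the 2089 genes that make up the fifth of tested genes with the highest signal.

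Complex I is the main entry of electrons into the respiratory chain. Its peripheral arm in the matrix takes electrons from NADH onto a flavin and passes them along a chain of iron-sulphur clusters to ubiquinone. Its membrane arm, whose pumping subunits are encoded by mitochondrial DNA, moves protons out of the matrix. Core subunits, which carry the redox centres and the pumps, are conserved from bacteria, and the accessory subunits around them serve assembly and stability. Extraocular muscles, which move the eye, are rich in mitochondria and resist fatigue, and thyroid hormone is known as a regulator of mitochondrial content in skeletal muscle.

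The series holds 8 arrays, each with total RNA of extraocular muscle from an adult Sprague-Dawley rat whose body weight at the outset was 200 ± 40 g. The 4 hyperthyroid rats had been given triiodothyronine (T3), 25 µg for each 100 g of body weight, into the abdominal cavity on alternate days during 6 weeks, and tissue was collected 24 hours after the final dose. The 4 control rats received no T3, and a vehicle injection is not mentioned in the sources used here. Neither sex nor a pooling of animals is given, arrays are taken as 1 rat each, and the label of 1 extraocular tissue covers several muscles. Numbers in the titles name the arrays, which are 1, 2, 3 and 5 of the hyperthyroid group and 7, 8, 9 and 11 of the control group. Question and groups thus come down to 1 comparison, of subunit transcripts under a chronic excess of thyroid hormone with those of untreated muscle.

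Some arrays stood apart before any subunit was read. All had a trimmed mean signal of 150.1, with medians from 47.8 to 58.5. The summed signal of 8 general skeletal muscle markers was 128300 to 183800 on hyperthyroid and 144600 to 184700 on control arrays. The 4 extraocular and developmental myosins (Myh13, Myh8, Myh3 and Myh6) summed to 259 on hyperthyroid 5 and to 21050 or more on every other array, and 6 slow-fibre genes summed to 55880 there against 9714 to 23350 elsewhere. Hyperthyroid 5 thus lacked the defining myosins of its labelled tissue, and the subunits and gene lists are therefore given with and without it. The 5 measured oligodendrocyte and optic nerve markers summed to 472 on hyperthyroid 2 and 248 on hyperthyroid 5, against 2698 to 5868 on the others. Xist stood at 367 on hyperthyroid 1 and 351 on control 11 and at 44.5 or less on the rest. Eif2s3y, a gene of the Y chromosome, stood at 6.32 and 16.2 on these arrays and at 533 or more on the rest. By these transcripts each group holds 1 array that reads as female, although the labels give no sex.

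Promoter windows show what these genes share in sequence. RefSeq start sites on build GRCr8 gave a window of 300 bases, 250 before the start and 50 from it on, for 32 of the 34 measured members; Ndufa8 and Ndufb9 had no entry. The windows of 4 members are printed because the results below turn on them: Ndufb10, Ndufs8 and Ndufb8 had the smallest unadjusted p among the subunits with a lower signal in hyperthyroid muscle, and Ndufs4 had the largest difference upward. Letters run 5′ to 3′ along the strand of the gene, and capitals mark motif matches.
Ndufb10, chr10:14255917-14256216, minus strand: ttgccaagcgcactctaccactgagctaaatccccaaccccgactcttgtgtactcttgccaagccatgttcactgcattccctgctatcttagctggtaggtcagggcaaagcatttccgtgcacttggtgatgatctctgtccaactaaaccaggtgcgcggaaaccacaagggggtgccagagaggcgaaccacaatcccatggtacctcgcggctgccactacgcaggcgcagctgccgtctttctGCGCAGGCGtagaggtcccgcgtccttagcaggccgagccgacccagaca
Ndufs8, chr1:210573649-210573948, minus strand: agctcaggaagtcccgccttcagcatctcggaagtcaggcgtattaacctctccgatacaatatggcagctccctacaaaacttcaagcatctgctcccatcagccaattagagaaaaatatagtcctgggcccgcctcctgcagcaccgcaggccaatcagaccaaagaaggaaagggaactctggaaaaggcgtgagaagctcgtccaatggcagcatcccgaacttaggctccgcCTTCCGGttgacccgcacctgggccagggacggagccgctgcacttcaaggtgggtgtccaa
Ndufb8, chr1:253362887-253363186, minus strand: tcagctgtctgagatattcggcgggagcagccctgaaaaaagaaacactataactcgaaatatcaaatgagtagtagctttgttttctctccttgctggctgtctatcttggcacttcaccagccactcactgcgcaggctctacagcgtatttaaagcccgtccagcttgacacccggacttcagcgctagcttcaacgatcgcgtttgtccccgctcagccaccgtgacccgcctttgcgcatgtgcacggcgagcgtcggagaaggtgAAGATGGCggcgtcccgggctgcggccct
Ndufs4, chr2:47794865-47795164, minus strand: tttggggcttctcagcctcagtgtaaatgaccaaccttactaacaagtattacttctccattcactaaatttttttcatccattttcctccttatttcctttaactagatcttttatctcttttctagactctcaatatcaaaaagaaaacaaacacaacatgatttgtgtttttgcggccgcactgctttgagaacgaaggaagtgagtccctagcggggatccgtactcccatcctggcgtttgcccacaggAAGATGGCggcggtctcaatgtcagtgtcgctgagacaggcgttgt

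Motifs were searched on both strands for factors known to act on nuclear genes of mitochondrial proteins, and positions count from 1 at the first transcribed base. Matches of different motifs did not overlap in any member's window. The NRF-1 core GCGCANGCG, which can match both strands at 1 place and is counted once a window, was in 8 of 32 subunit windows (25%), in 13.4% of the 8709 windows of tested genes and in 5.80% of all 33469 windows. In Ndufb10 it began at position 1. The GABPA/ETS core CCGGAAG was in 7 of 32 (21.9%), against 17.8% of tested genes and 8.745% of all windows, and Ndufs8 carried it on the opposite strand at position -12. The estrogen related receptor half-site AAGGTCA was in 3 (9.375%, against 2.69% and 4.61%). The YY1 core AAGATGGC was in 8 (25%, against 5.615% of tested genes and 3.17% of all windows), and each of the 8 lay on the sense strand between positions 5 and 27. Ndufs4 carried it at position 5 and Ndufb8 at position 22, so a subunit with a higher and one with a lower signal in hyperthyroid muscle share it just downstream of the start. Of the 10 windows of subunits lower at an unadjusted p under 0.05, 2 held the NRF-1 core, 4 the GABPA/ETS core, 0 the receptor half-site and 1 the YY1 core. In the other 22 windows the counts were 6, 3, 3 and 7. The 12 members without any of the 4 motifs include Ndufs3, Ndufb11 and Ndufc2. These are descriptions of letters, which were not tested.

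Most subunits had a lower mean log2 signal in hyperthyroid muscle, by small amounts, and none passed the test. Of 34 subunits, 26 had a difference (hyperthyroid minus control) below 0, where 48.8% of all tested genes did. Their median was -0.14 on the log2 scale, against 0.01 over all tested genes, and single subunits ran from -0.89 (Ndufb8) to 0.78 (Ndufs4). No subunit reached an adjusted p under 0.05 in limma, nor did any of the 18625 probe sets tested (0%). At an unadjusted p under 0.05, 11 subunits were lower (5.83% of all genes were) and 1 was higher (6.34% of all genes). In 9 subunits all 4 hyperthyroid arrays lay below all 4 control arrays, an arrangement found in 3.75% of all genes, and in 0 subunits did all lie above, against 4.49% of all genes. A lower signal in whole muscle cannot tell fewer mitochondria-rich cells from less transcript in each cell. Markers of other cells varied beside the subunits. The 4 measured endothelial markers summed to 1249 to 1553 on hyperthyroid and 1041 to 1245 on control arrays, so the closest sums nearly met. All 4 had differences above 0. Kdr, chosen after its values were seen, stood at 0.59 and was the 1 with separate groups, which 4.49% of all genes had on the upper side. Pecam1, Tek and Tie1 stood at 0.26, 0.135 and 0.13 and overlapped the controls, with unadjusted p of 0.172, 0.454 and 0.602 in limma. The 5 fibroblast markers summed to 11320 to 32000 on hyperthyroid and 16490 to 30220 on control arrays, with the lowest sum on hyperthyroid 2 and the highest on hyperthyroid 5. Without hyperthyroid 5, 4 of these 5 were lower at an unadjusted p under 0.05, as were 8.2% of all genes. None of the 5 had an adjusted p under 0.05. Adipocyte markers (5 measured) summed to 875 on hyperthyroid 2 and 6384 on hyperthyroid 5, outside the controls' 1811 to 2635. Leukocyte markers (5) summed to 1185 on hyperthyroid 2 and 4282 on hyperthyroid 5, outside the controls' 1318 to 2233. Brown adipocyte markers (Ucp1, Cidea, Elovl3, Cox7a1 and Cpt1b) summed to 1321 to 2292 on hyperthyroid and 2019 to 2985 on control arrays. Of the 3 that passed the filter, 2 had a difference below 0. Cidea, at -0.765, was the 1 lower at an unadjusted p under 0.05, as were 5.83% of all genes. The part of these cells in the subunits' differences was not tested.

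**Figure D1:**
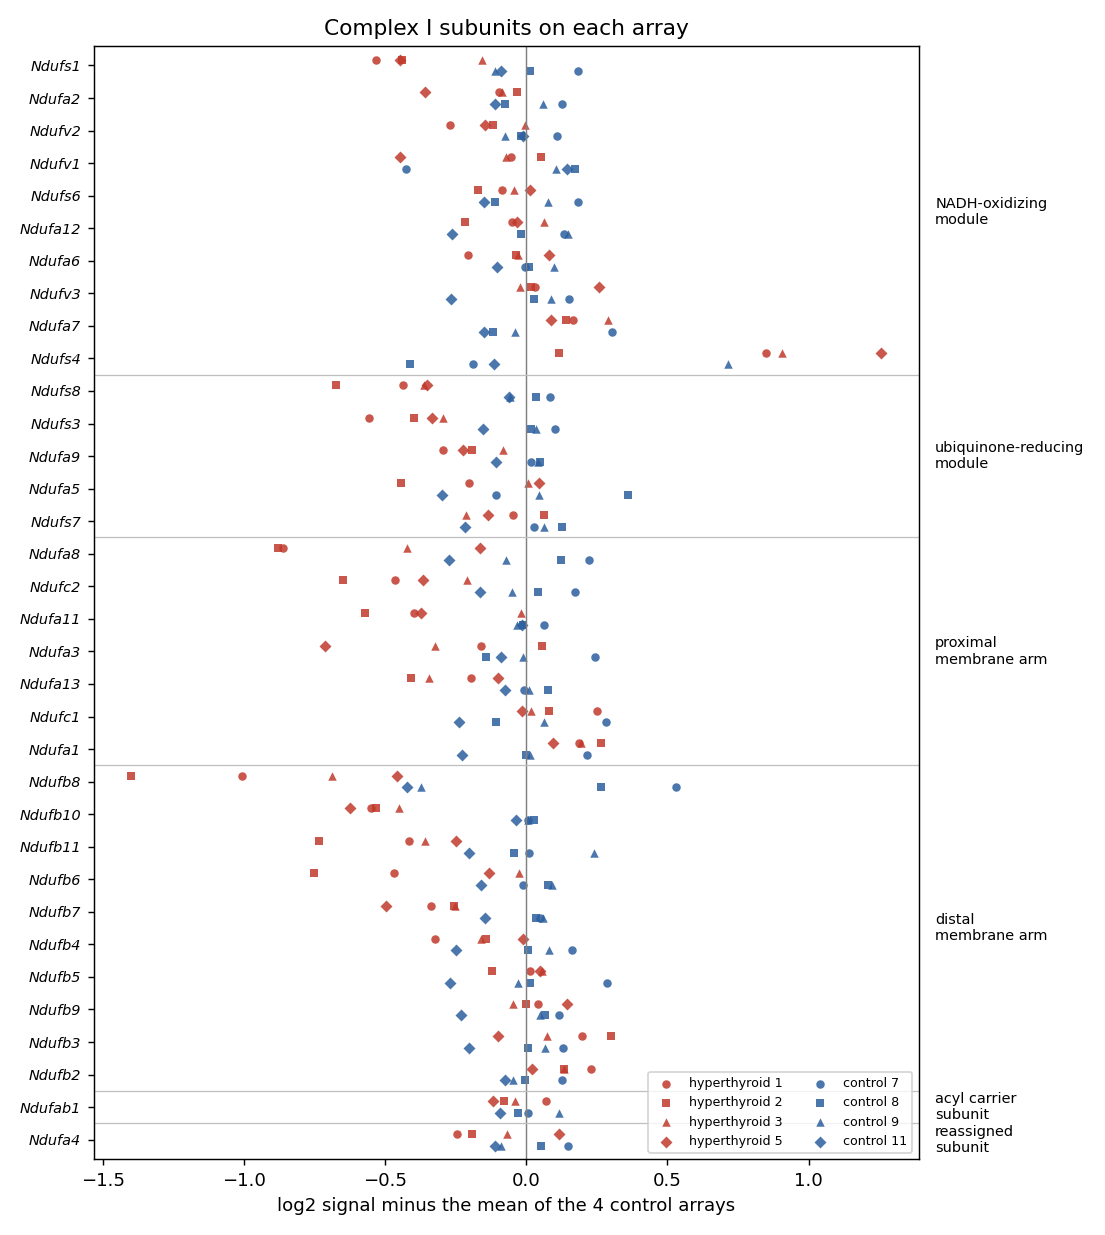
Log2 signal of each of the 34 subunits (rows, grouped by module) on each array, as the difference from the mean of the 4 control arrays (horizontal axis). Red points are hyperthyroid and blue points control arrays, and in Ndufb10 all 4 red points lie below the blue ones, between 2039 and 2296 in signal against 3060 to 3198.

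The NADH-oxidizing module at the tip of the peripheral arm held 10 subunits, of which 7 had a difference below 0, with a median of -0.065. Ndufs1, its large iron-sulphur core subunit, had signals of 3085, 3285, 4002 and 3270 on hyperthyroid 1, 2, 3 and 5 and of 5066, 4503, 4130 and 4189 on control 7, 8, 9 and 11. The groups did not overlap, although hyperthyroid 3 lay close to control 9. The difference was -0.39 ± 0.13 (SE), or -23.9%, with an adjusted p of 0.326. The other core subunits of the module, the flavin- and NADH-binding Ndufv1 and its iron-sulphur partner Ndufv2, stood at -0.13 ± 0.17 and -0.14 ± 0.115, and both overlapped the controls. In Ndufv1, control 7 was as low as hyperthyroid 5 (2144 and 2111), while the other arrays had 2735 to 3246.

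Ndufs4, an accessory subunit needed for stable attachment of this module and known from inherited complex I deficiency, had the largest of the 8 differences above 0. It had signals of 3081, 1854, 3208 and 4089 on the hyperthyroid arrays and of 1501, 1285, 2809 and 1582 on the control arrays, in the same order as above. Hyperthyroid 2 lay below control 9, so the groups overlapped, and both groups were wide. The means were 3058 ± 920 and 1794 ± 688 (SD, n = 4 each), and the difference of 0.78 ± 0.27 had an adjusted p of 0.332. Among the remaining accessory subunits of the module, Ndufa2 (-0.14), Ndufs6 (-0.07), Ndufa12 (-0.06) and Ndufa6 (-0.05) had differences below 0, and Ndufv3 (0.07) and Ndufa7 (0.17) above 0. None of these 6 had an unadjusted p under 0.05. Ndufa7 had a second, dim probe set of opposite sign, at -0.65 ± 0.31, with a mean signal of 66.0 against 2971 for the one used.

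The ubiquinone-reducing module, where electrons leave the iron-sulphur chain, held 5 subunits, and all 5 had a difference below 0, with a median of -0.20. Ndufs8, a core subunit that binds 2 iron-sulphur clusters, had signals of 1311, 1113, 1379 and 1390 on hyperthyroid 1, 2, 3 and 5 against 1877, 1816, 1704 and 1698 on control 7, 8, 9 and 11. Every hyperthyroid array lay below every control array, and the means were 1298 ± 128 and 1774 ± 87.7 (SD, n = 4 each). The difference was -0.45 ± 0.12 (-27.04%), with an adjusted p of 0.269. Ndufs3, a core subunit among the first to be assembled, had 2277, 2547, 2732 and 2658 on the hyperthyroid arrays and 3600, 3390, 3431 and 3017 on the control arrays. These groups did not overlap either, and the difference was -0.40 ± 0.12 with an adjusted p of 0.289. Ndufs7, the core subunit that holds the last cluster before ubiquinone, stood at -0.08 ± 0.125, and the accessory Ndufa9 and Ndufa5 at -0.20 ± 0.11 and -0.15 ± 0.17. These last 3 overlapped the controls.

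The proximal membrane arm, next to the peripheral arm, was represented by 7 accessory subunits, 5 of them with a difference below 0 and a median of -0.285. Ndufc2, a small membrane subunit, had signals of 4302, 3789, 5137 and 4606 on the hyperthyroid arrays and of 6691, 6115, 5727 and 5305 on the controls. The groups were separate, with a difference of -0.42 ± 0.13 and an adjusted p of 0.313. Ndufa13, also known as GRIM-19, had 3525, 3042, 3179 and 3762 against 4013, 4255, 4061 and 3829, again without overlap, at -0.26 ± 0.12 (adjusted p = 0.420). Its closest arrays, hyperthyroid 5 and control 11, differ by little.

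Overlap of single arrays set apart the next members of this arm. Ndufa8, an intermembrane-space subunit with paired cysteine motifs, had 2308, 2278, 3125 and 3737 against 4883, 4559, 3984 and 3469, so that only hyperthyroid 5 lay above a control array. The difference was -0.58 ± 0.18 with an adjusted p of 0.306. Ndufa11 had 1512, 1339, 1964 and 1538 against 2079, 1971, 1943 and 1968. Hyperthyroid 3 lay within the narrow range of the controls and the other hyperthyroid arrays well below it, at a difference of -0.34 ± 0.135 (adjusted p = 0.381). Ndufa3 stood at -0.285 ± 0.17 and ranged from 1718 on hyperthyroid 5 to 2930 on hyperthyroid 2, a wider range than the controls' 2552 to 3332. Ndufc1 and the X-linked Ndufa1 were at 0.08 ± 0.14 and 0.19 ± 0.13, above 0.

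The distal membrane arm, the far end of the proton-pumping part, held 10 subunits, of which 7 had a difference below 0, with a median of -0.25, and it included both the smallest p and the largest difference downward. Ndufb10, a subunit with disulphide-bonded cysteine pairs that is needed for building this arm, had signals of 2142, 2172, 2296 and 2039 on hyperthyroid 1, 2, 3 and 5 and of 3150, 3198, 3149 and 3060 on control 7, 8, 9 and 11. Both groups were tight and far apart, at 2162 ± 106 and 3140 ± 57.4 (SD, n = 4 each). The difference was -0.54 ± 0.11 (-31.2%), with an unadjusted p of 0.000338 that ranked 16 among 10446 genes and an adjusted p of 0.214. Ndufb8, a membrane-spanning subunit, had 468, 357, 585 and 685 against 1360, 1130, 726 and 702. The hyperthyroid arrays were all lower, but hyperthyroid 5 lay just under control 11, and the controls themselves spread from 702 to 1360. Its difference was -0.89 ± 0.25 (-45.9%), with an adjusted p of 0.283.

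Ndufb11, an X-linked membrane subunit, had signals of 3869, 3102, 4021 and 4343 on the hyperthyroid arrays and of 5187, 4996, 6083 and 4477 on the controls. The groups did not overlap, at -0.44 ± 0.14 and an adjusted p of 0.328. Ndufb7, a further subunit with paired cysteines, had 2179, 2303, 2311 and 1950 against 2847, 2823, 2872 and 2487. All hyperthyroid arrays were again below all controls, and the difference was -0.34 ± 0.12 (adjusted p = 0.332). Ndufb6 had 1597, 1315, 2170 and 2019 against 2195, 2335, 2355 and 1981; hyperthyroid 1 and 2 lay below every control, while hyperthyroid 3 and 5 lay among them. It stood at -0.34 ± 0.16 with an unadjusted p of 0.0589. The other 5 subunits of this arm lay near 0 or above: Ndufb4 at -0.16, Ndufb5 just below 0.00, Ndufb9 at 0.03, Ndufb3 at 0.12 and Ndufb2 at 0.13, each with an unadjusted p of 0.250 or more.

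Listed apart from these modules, Ndufab1, the acyl carrier protein shared with mitochondrial fatty acid synthesis, stood at -0.04 ± 0.11. Ndufa4, named as a complex I subunit but since assigned to cytochrome oxidase, stood at -0.10 ± 0.13. By another division, the 6 measured core subunits (Ndufv1, Ndufv2, Ndufs1, Ndufs3, Ndufs7 and Ndufs8) all had a difference below 0, with a median of -0.26, and 3 of them had separate groups. Of 28 accessory subunits, 20 had a difference below 0 and 6 had separate groups on the lower side, with a median of -0.12. Such groups were found in 3.75% of all genes and in 9.43% of the fifth with the highest signal. Without hyperthyroid 5 the medians were -0.25 for the core subunits, again all 6 below 0, and -0.12 for the accessory ones, 21 of 28 below 0. Whether core and accessory subunits differ was not tested. The 22 subunits with an unadjusted p of 0.05 or more had differences from -0.34 to 0.19, and their 95% intervals reached from -0.705 to 0.46, 19 of them lying within 0.5 of 0 on the log2 scale. None of the 22 differences could be told from 0 at that p, and in 3 of them the interval went beyond 0.5 from 0. The median SE over the 34 subunits was 0.13.

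**Figure D2:**
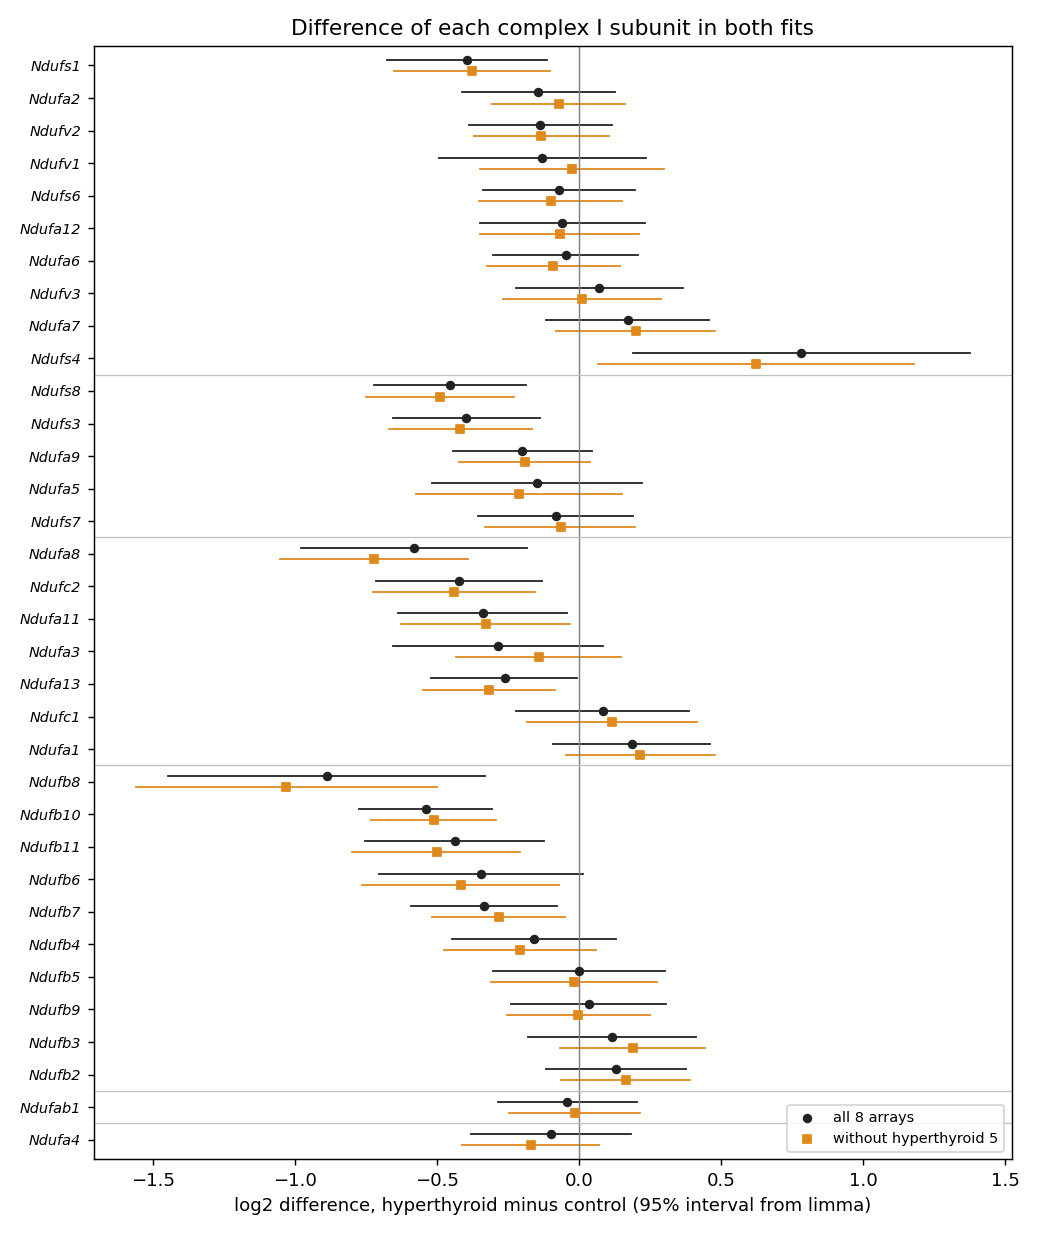
Log2 difference, hyperthyroid minus control (horizontal axis), of each subunit (rows, in the order of the modules) with its 95% interval from limma. Black circles are the fit on all 8 arrays and orange squares the fit without hyperthyroid 5, and the order of the subunits is much alike, with Ndufb8 at -0.89 and -1.03 as the lowest in both.

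Without hyperthyroid 5, 27 of 34 subunits had a difference below 0 (48.1% of all genes did), and the median was -0.14 again, against 0.02 over all genes. Of the 34, 33 had the same sign in both fits, and Ndufb9, at 0.03 and -0.003, was the exception. Again 0 subunits had an adjusted p under 0.05, while 29 probe sets of the whole table (0.156%) did. Unadjusted, 12 subunits were lower (8.2% of all genes) and 1 was higher (7.82%), with the 11 of the fit on all arrays among the 12 and Ndufb6 added at -0.42 (unadjusted p = 0.0226). Groups were separate on the lower side in 10 subunits (7.22% of all genes), the 9 from before and Ndufa8, and on the upper side in 1 (8.3%), Ndufb2 at 0.165.

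Leaving that array out moved single subunits in both directions. Ndufa8 went from -0.58 to -0.72 (adjusted p = 0.0818), Ndufb8 from -0.89 to -1.03 (adjusted p = 0.1003) and Ndufb11 from -0.44 to -0.50 (adjusted p = 0.139). Ndufb10 was at -0.51, with an adjusted p of 0.0731, the smallest among the subunits, and Ndufs8 at -0.49 with 0.107. Ndufs3 (-0.42), Ndufc2 (-0.44), Ndufs1 (-0.38), Ndufa13 (-0.32), Ndufa11 (-0.33) and Ndufb7 (-0.28) had adjusted p from 0.144 to 0.282. Ndufs4, whose highest signal was on the array left out, went from 0.78 to 0.62 (adjusted p = 0.274), and Ndufa3, whose lowest was there, from -0.285 to -0.14.

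Read array by array, the subunits did not split the groups cleanly. The median over the 34 subunits of the log2 distance from the control mean was -0.20, -0.16, -0.06 and -0.125 on arrays 1, 2, 3 and 5 of the hyperthyroid group. For arrays 7, 8, 9 and 11 of the control group it was 0.12, 0.015, 0.04 and -0.15. Control 11 was thus lower than hyperthyroid 3 and 5 by this measure, and control 7 the highest of all. Hyperthyroid 1 and control 11, the arrays with high Xist, had the lowest medians of their groups. The part of sex in these values was not tested. Control 7 had the highest control signal in 21 of 34 subunits and control 11 the lowest in 28. Below every control array lay 18, 17, 11 and 16 subunits of the hyperthyroid arrays 1, 2, 3 and 5, and above every control array lay 3, 3, 2 and 3. These counts were not made over all genes, so no background stands beside them.

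The modules differed on single arrays. On hyperthyroid 2 the ubiquinone-reducing module and the proximal arm had medians of -0.40 and -0.41, against -0.03 for the NADH-oxidizing module and -0.20 for the distal arm. On hyperthyroid 1 the distal arm was lowest, at -0.33. The lowest module median was -0.21 on hyperthyroid 3 and -0.22 on hyperthyroid 5, in both cases that of the ubiquinone-reducing module. On control 11 the 4 modules stood from -0.11 to -0.20, so that this array was lower throughout the complex.

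A measure of RNA length varied beside these values. The hyperthyroid arrays 1, 2, 3 and 5 had Gapdh ratios of 3′ to 5′ probe set signal, larger with shorter RNA, of 3.91, 4.402, 2.18 and 1.44. The control arrays 7, 8, 9 and 11 had ratios of 1.97, 1.68, 1.77 and 1.67. Hyperthyroid 1 and 2, with the highest ratios, also had the lowest subunit medians. Hyperthyroid 5 had the lowest ratio of all, with a subunit median of -0.125. With the ratio as a covariate, 8 of 34 subunits were lower at an unadjusted p under 0.05, as were 8.14% of all genes. With the covariate and without hyperthyroid 5, 2 were (Ndufa3 at -0.50 and Ndufb10 at -0.43), against 3.04% of all genes. Without hyperthyroid 1 and 2, 5 were lower, against 6.12% of all genes (Ndufs3, Ndufs8, Ndufa3, Ndufb7 and Ndufb10, the last at -0.54), and the median over the subunits was -0.08. Ndufs4 stood at 1.10 with the covariate and at 1.08 without those 2 arrays. The part of RNA length in the other differences was not tested beyond these fits.

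**Figure D3:**
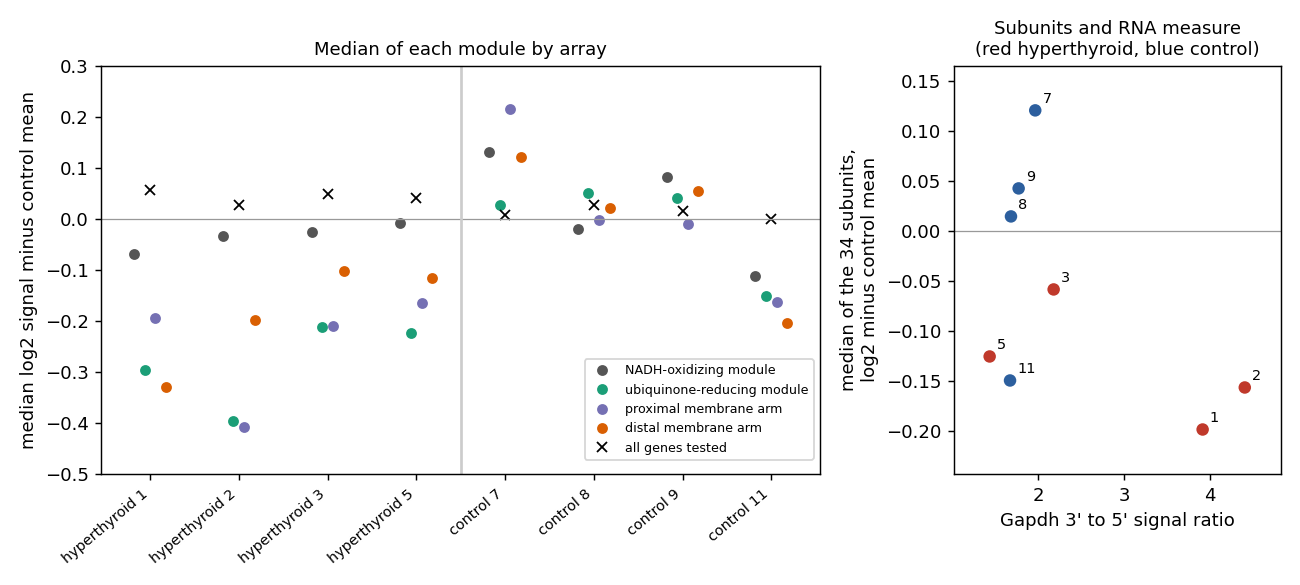
Left, median log2 distance from the control mean on each array for the 4 modules (coloured points) and for all tested genes (crosses). Right, the median over the 34 subunits against the Gapdh 3′ to 5′ signal ratio, with arrays numbered: hyperthyroid 1 and 2 lie at ratios of 3.91 and 4.402, and hyperthyroid 5 and control 11 are also low in subunit median, at ratios of 1.44 and 1.67.

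Bright genes as a whole also had more differences below 0 than above, and they give a second background for these subunits. Among the 2089 genes in the fifth with the highest signal, 60.6% had a difference below 0, with a median of -0.08, and 13.1% were lower at an unadjusted p under 0.05 and 6.65% higher. Separate groups on the lower side were found in 9.43%. The subunits' shares in the same fit were 76.5%, 32.4%, 2.94% and 26.5%. Without hyperthyroid 5, 61.85% of the bright genes had a difference below 0, 20.1% were lower and 9.14% higher at that p, and 18.4% had separate groups on the lower side, against 79.4%, 35.3%, 2.94% and 29.4% of the subunits. Over control arrays the median SD of a subunit was 0.148 on the log2 scale, against 0.152 for the bright genes, and over hyperthyroid arrays it was 0.127 against 0.25.

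**Figure D4:**
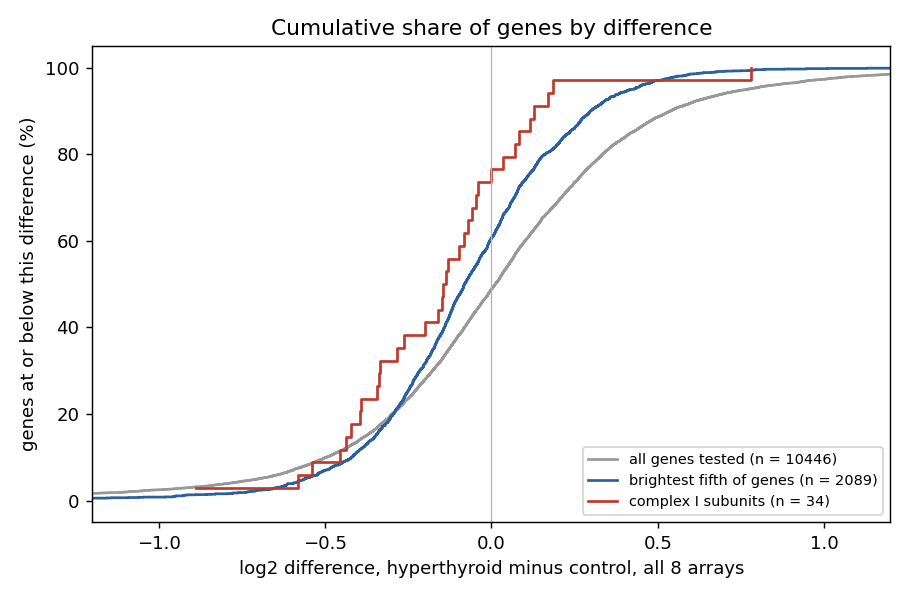
Cumulative share (vertical axis, percent) of genes at or below each log2 difference, hyperthyroid minus control (horizontal axis), in the fit on all 8 arrays. The line of the 34 subunits (red) lies left of the 2089 bright genes (blue) and of all 10446 tested genes (grey) at most differences between -0.5 and 0.5, with medians of -0.14, -0.08 and 0.01.

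Genes that build complex I were measured beside it. Of 18 assembly factors, 15 were tested, 9 of them with a difference below 0 and a median of -0.12, and 0 had an adjusted p under 0.05. Nubpl, which delivers iron-sulphur clusters to complex I, had signals of 166, 133, 125 and 146 on the hyperthyroid arrays against 312, 236, 230 and 212 on the controls. These groups were separate, with a difference of -0.79 ± 0.19 (adjusted p = 0.232). Ndufaf3, an early factor of the ubiquinone-reducing module, also had separate groups, at -0.36 ± 0.13. Ndufaf4, which works with it, stood at 0.465 ± 0.17, the opposite sign. Of the 15 factors, 2 had separate groups on the lower side (3.75% of all genes) and 0 on the upper side (4.49%). Without hyperthyroid 5 these counts were 2 and 2 (7.22% and 8.3% of all genes). Without hyperthyroid 5, 9 of 15 were again below 0, with a median of -0.10, and Nubpl, Ndufaf3 and Ndufaf4 stood at -0.80, -0.36 and 0.43. No probe set matched the 7 subunits encoded by mitochondrial DNA, which are not analysed here.

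Other parts of the respiratory chain held 0 genes with an adjusted p under 0.05 in either fit. All 4 subunits of complex II, which feeds electrons to ubiquinone from succinate, had separate groups on the lower side, which 3.75% of all genes and 9.43% of the bright genes had, and the median was -0.39. Sdhb had 4832, 4749, 5462 and 5018 on the hyperthyroid arrays against 7600, 8111, 7720 and 6703 on the controls, at -0.59 ± 0.12 (adjusted p = 0.214), and Sdhc and Sdhd stood at -0.40 and -0.38. Without hyperthyroid 5 the 4 again had separate groups (7.22% of all genes and 18.4% of the bright genes), with a median of -0.40. In complex III, 7 of 8 were below 0 (median -0.18), with Cyc1 at -0.52, Uqcrfs1 at -0.39 and Uqcrc2 at -0.43, and without hyperthyroid 5 it was 6 of 8 (median -0.17). In cytochrome oxidase 8 of 12 were below 0 (median -0.10), and Cox6a1 (-0.39) and Cox5a (0.36) had opposite signs. Without hyperthyroid 5, 7 of 13 were below 0 and the median was -0.015, with 2 genes lower and 2 higher at an unadjusted p under 0.05. Of all genes 8.2% were lower and 7.82% higher at that p. Of the ATP synthase genes 12 of 14 were below 0 (median -0.13), led by Atp5mg (-0.44), Atp5f1a (-0.39) and Atp5pb (-0.46), and without hyperthyroid 5 it was 10 of 14 (median -0.15).

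A mixed list held electron entry beside complex I, the malate-aspartate shuttle that brings NADH equivalents into the matrix (Slc25a11, Slc25a12 and Slc25a13) and ubiquinone synthesis (Coq7 and Coq9). Of its 9 measured genes, 7 were below 0, with a median of -0.33, and without hyperthyroid 5 again 7, with a median of -0.28. Etfb and Etfdh, which pass electrons of fatty acid oxidation to ubiquinone, stood at -0.33 and -0.40. Gpd2, the mitochondrial glycerol phosphate dehydrogenase and a known target of thyroid hormone, had 692, 769, 681 and 790 on the hyperthyroid arrays against 623, 543, 612 and 476 on the controls, at 0.38 ± 0.14 (adjusted p = 0.344). Its groups were separate on the upper side in the fit on all arrays, which 4.49% of all genes had and no subunit did. Of the 9 genes it was the 1 on that side, and 5 had separate groups on the lower side (3.75% of all genes). Without hyperthyroid 5 these counts were 1 and 6 (8.3% and 7.22% of all genes). Of 14 tested regulators of mitochondrial biogenesis, 8 were below 0 (median -0.09) and 0 had an unadjusted p under 0.05, with Esrra at -0.38, Yy1 at 0.24 and Polrmt at -0.61. Without hyperthyroid 5, 7 of 14 were below 0 with a median of -0.005. At that p 7.82% of all genes were higher, and of the regulators 1 was, with separate groups. This was Ppargc1b, a coactivator of mitochondrial genes named after its values were seen, which went from -0.04 to 0.52 (unadjusted p = 0.0308, adjusted p = 0.274).

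Scaling moved the subunits' level and their counts. Centring each array on its median moved the median of all genes to -0.11, and to -0.16 without hyperthyroid 5, where the subunits' medians were -0.26 and -0.32. In the second of these fits 313 probe sets passed the threshold (1.68%), 20 subunits were lower at an unadjusted p under 0.05 (17.2% of all genes), and 8 subunits passed (Ndufs1, Ndufs3, Ndufs8, Ndufa8, Ndufc2, Ndufb8, Ndufb10 and Ndufb11). With quantile normalization of all 8 arrays the subunits' median was -0.066, with 23 of 34 below 0 and 6 with separate groups on the lower side. The share of all genes with separate groups was not counted there. With quantile normalization and without hyperthyroid 5 the subunits' median was -0.02, with 18 of 34 below 0, and 0 passed. There 8 subunits were lower at an unadjusted p under 0.05 (7.94% of all genes) and 5 were higher (7.59%). Over all 24 alternatives run, 14 subunits stayed below 0 and Ndufs4 and Ndufa1 stayed above 0. Alternatives that change only the filter, the variance model or the threshold could not turn a sign. Over the 24, Ndufb10 ran from -0.69 to -0.41, Ndufs8 from -0.67 to -0.31, Ndufb8 from -1.21 to -0.57 and Ndufs4 from 0.445 to 1.10.

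**Figure D5:**
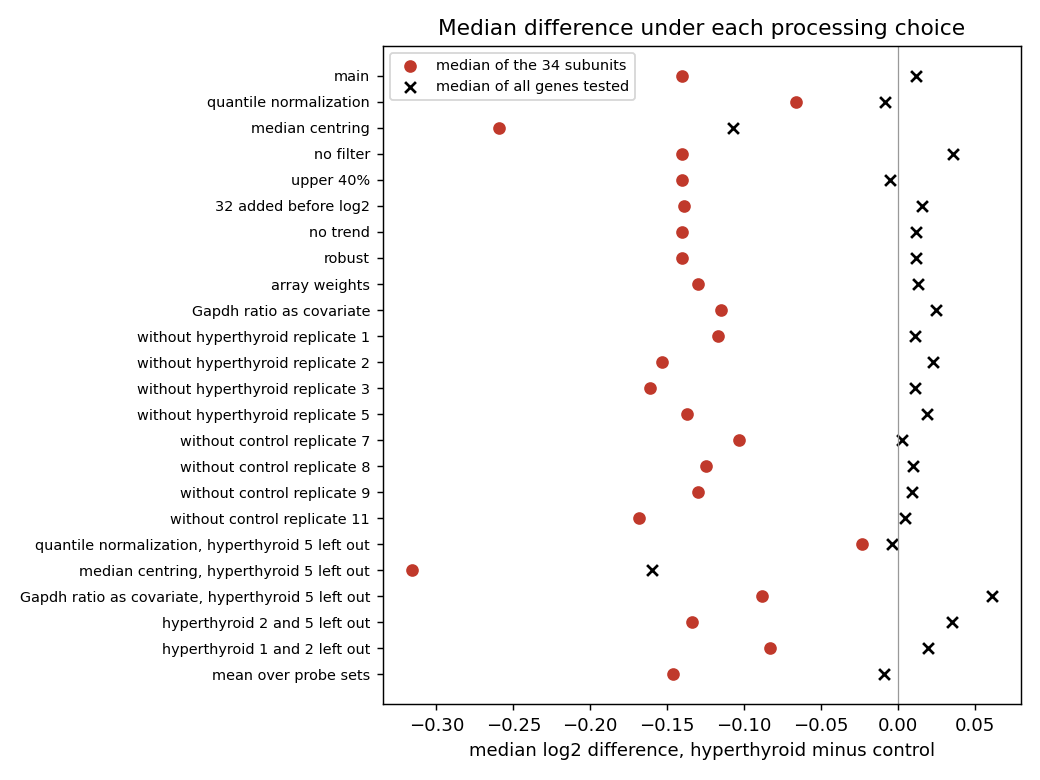
Median log2 difference, hyperthyroid minus control (horizontal axis), of the 34 subunits (red points) and of all tested genes (crosses) under each processing choice (rows). The subunits' median is below that of all genes in every row, from -0.32 with median centring without hyperthyroid 5 to -0.02 with quantile normalization without it.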

How the data were processed

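Total RNA of 8 extraocular muscle samples (4 hyperthyroid, 4 control) had been hybridised to Affymetrix rat arrays after oligo(dT)-primed labelling, per the labels' protocols. The authors deposited linear intensities, with 1 value for a probe set on each array. GCOS, the array maker's software, is the only tool in the submitters' processing notes and has no version there. Their mean after trimming 2% at each end was 150.1 on every array, so they had been scaled, while medians differed. Detection calls are not given in the sources used here, and the number of arrays limits the precision.

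Of 31099 probe sets, 57 were manufacturer's controls and were left out. Of the other 31042, 20826 had 1 gene symbol in the platform annotation, 436 several and 9780 none. Intensities were set to at least 1 (1665 values were lower) and taken to log2, where differences of dim probe sets are imprecise. The upper 60% by mean log2 signal (18625 probe sets, above a signal of about 28.2) went into limma 3.58.1 under R 4.3.3 (lmFit and eBayes with trend). Tests were two-sided, Benjamini-Hochberg adjustment ran over all of these probe sets, and the threshold was 0.05. Nothing in the labels says that arrays of a group are more than separate samples, so p-values measure the spread between these. The fit was tested on simulated data.

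The members, modules and lists were chosen with earlier results of these data known. Values in full were given for members with an unadjusted p under 0.05 in either fit (at most 12) and the largest upward difference, and the up to 3 genes of smallest p of each pathway list were named. Members with several probe sets were named where these differed in sign. Alternatives were other normalizations, filters, offsets, variance models, array weights, the Gapdh ratio as a covariate, the mean over probe sets, a threshold of 0.1 and arrays left out. Leaving out hyperthyroid 1 and 2 together was added after seeing the data. Promoter windows came from a RefSeq table of build GRCr8, which may not be the build behind the probe sets.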

Additional observations from a re-analysis of the deposited data

Results flagged for a closer look

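The measured levels of the subunits were screened in each group of 4 for an array far from the other 3, over 68 groups, where chance gives such an array in about 5% of them. In Ndufv1, the flavin-binding subunit, control 7 stood at 2144, and the other control arrays had 3091 to 3246. In Ndufb7, control 11 stood at 2487 against 2823 to 2872 on the other controls, still above every hyperthyroid array. No array of the hyperthyroid group was as far from its group, by the same measure, in any subunit.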

How the results depend on the processing

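The difference of each of the 34 subunits was recomputed under 24 alternatives. Of these values, 768 counted as unchanged in direction and side of the threshold, 8 newly passed it and 40 turned sign. Values that round to 0.00 were not counted as turns, such as Ndufb9 at -0.003 without hyperthyroid 5. Ndufb5, at 0.00 in the fit on all arrays, was not counted as turning either, although its values ran from -0.196 to 0.158. Other filters, other variance models and the threshold of 0.1 leave a difference as it is, so the sign was fixed in advance there. The same holds for the mean over probe sets in subunits with 1 probe set. Probe sets past the threshold numbered 0 in the fit on all arrays, 6 with array weights, 8 with the Gapdh ratio as a covariate, 36 with quantile normalization and hyperthyroid 5 left out, 313 with median centring and that array left out, 1 with the covariate and that array left out, 9 without hyperthyroid 2 and 5, 3 without hyperthyroid 1 and 2, and 0 to 29 with 1 array left out, the 29 without hyperthyroid 5. Subunits past the threshold numbered 8 with median centring and hyperthyroid 5 left out, at adjusted p from 0.0254 (Ndufb10) to 0.0494 (Ndufs1), and 0 otherwise; over all alternatives the adjusted p of Ndufb10 ran from 0.0254 to 0.986 and that of Ndufs1 from 0.0494 to 0.986. Subunits lower at an unadjusted p under 0.05 numbered 11 in the fit on all arrays (5.83% of all genes) and 20 with that setting (17.2%). They numbered 2 with the covariate and hyperthyroid 5 left out (3.04%), and 5 without hyperthyroid 1 and 2 (6.12%). Leaving out 1 array gave 9 to 12. Among those fits the share of all genes was counted only without hyperthyroid 5 (8.2%), so the other counts have no background beside them. Subunits higher at that p numbered 1 (6.34% of all genes), but 0 with median centring, with or without hyperthyroid 5. With quantile normalization and hyperthyroid 5 left out they numbered 5 (7.59% of all genes). Separate groups on the lower side numbered 9, and 20 with median centring and hyperthyroid 5 left out. On the upper side they numbered 0, 0 to 3 with 1 array left out (3 without control 7), 4 with quantile normalization and hyperthyroid 5 left out, 2 without hyperthyroid 2 and 5, and 1 without hyperthyroid 1 and 2. The shares of all genes with separate groups were counted only in the fit on all arrays and the fit without hyperthyroid 5. The counts under the other alternatives therefore have no background beside them. The subunits' median moved from -0.14 to -0.259 with median centring and -0.066 with quantile normalization of all 8 arrays. When hyperthyroid 5 was left out it moved to -0.316 with median centring, -0.023 with quantile normalization and -0.088 with the covariate. It was -0.083 without hyperthyroid 1 and 2, and -0.168 to -0.103 with 1 array left out.

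Ndufb5, just below 0.00 in the fit on all arrays, stood above 0 in 10 of the 24 alternatives, below 0 in 7 and at 0.00 otherwise. Apart from Ndufb5 and from values that round to 0.00, signs turned in the following subunits and alternatives. With quantile normalization, Ndufa6 stood at 0.059. With quantile normalization and hyperthyroid 5 left out, Ndufa6 stood at 0.057, Ndufv1 at 0.108, Ndufs6 at 0.017, Ndufa2 at 0.056, Ndufa12 at 0.054, Ndufs7 at 0.074 and Ndufab1 at 0.072. With median centring, Ndufv3 stood at -0.048, Ndufc1 at -0.036 and Ndufb9 at -0.086, and with hyperthyroid 5 also left out Ndufv3 at -0.17, Ndufc1 at -0.063, Ndufb9 at -0.182 and Ndufb2 at -0.014. With the Gapdh covariate, Ndufa6 stood at 0.02, Ndufc1 at -0.011, Ndufa5 at 0.021, Ndufb3 at -0.031 and Ndufa4 at 0.016. With the covariate and hyperthyroid 5 left out, Ndufv3 stood at -0.095, Ndufc1 at -0.099, Ndufb9 at -0.105, Ndufa5 at 0.145, Ndufb3 at -0.037, Ndufv1 at 0.026, Ndufa12 at 0.066, Ndufa11 at 0.10 and Ndufb6 at 0.142. Without hyperthyroid 1 and 2, Ndufa6 stood at 0.026, Ndufa5 at 0.027, Ndufb3 at -0.014, Ndufa4 at 0.024 and Ndufa12 at 0.015, and without hyperthyroid 2 and 5 Ndufa12 at 0.006 and Ndufab1 at 0.017. With 1 array left out, Ndufa6 ran from -0.09 to 0.006, Ndufv3 from -0.017 to 0.122 and Ndufb9 from -0.043 to 0.072. The mean over probe sets put Ndufa7 at -0.241. The cause was not tested. No paired analysis was possible because the groups share no replicate numbers.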
